A study of Mus musculus with 17 samples.

Results

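The claudins and their partners in the tight junction are described here across 17 mouse mammary tumours, as 9 genes of the 12393 measured on the arrays, with none of the 9 missing. They are the claudins Cldn1, Cldn3, Cldn4, Cldn7 and Cldn8 of epithelial cells, occludin (Ocln), the junctional adhesion molecule A (F11r), the scaffold protein ZO-1 (Tjp1) and, as a contrast, Cldn5, the main claudin of blood vessel endothelium. Each gene is represented by its probe set with the highest mean over the 17 arrays. The genes were picked by name and role, with earlier results of these data known.

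The tumours arose in FVB mice carrying Myc T58A, a mutant of the Myc transcription factor, driven by MMTV, a viral promoter active in mammary epithelium, and the labels call all of them low expressing. The histology label gave 6 EMT tumours (epithelial to mesenchymal transition, the conversion of epithelial into mesenchymal cells), 1 Papillary tumour, 1 Microacinar tumour and 9 Squamous tumours, with 1 array each. All groups share the transgene and the strain, and no array here is of normal mammary gland. Age was not given in the sources used here, and no label ties a tumour to an animal, so p-values measure only the spread between these samples, part of which may be technical.

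Tight junctions seal the space between neighbouring epithelial cells and separate the apical from the basolateral membrane. Claudins and occludin span the membrane and form the sealing strands, F11r adds an immunoglobulin-like adhesion protein, and Tjp1 ties the strands to actin inside the cell. Low Cldn3, Cldn4 and Cldn7 is the feature after which claudin-low breast tumours were named. Repressors of the Zeb and Snai families, which act in epithelial to mesenchymal transition, bind short DNA motifs in the promoters of junction genes.

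All values are log2 values per probe set as deposited, so a difference of 1 is a doubling on the linear scale, and the number of tumours limits their precision. Array medians lay between 7.23 and 7.40. The titles of EMT 5, EMT 6 and Squamous 9 contain TM, and those of the other 14 arrays, called numbered here, hold only numbers. These 3 arrays had a wider spread of values (SD 2.46 to 2.51, against 2.25 to 2.29), and 2989 probe sets held 1 identical value on all 3. The title format was therefore a term of the model, so the log2 fold changes differ from plain differences of group means. Values within each format stand beside the results. The 3′ minus 5′ difference of the beta-actin control probe sets, a sign of RNA integrity, was 0.44 to 0.82 in EMT and 0.62 to 0.96 in Squamous tumours. For the Gapdh control probe sets it was -0.03 to 0.39 in EMT and -0.02 to 0.38 in Squamous tumours, and EMT 4 was highest. The means of 8 epithelial marker genes were 8.61, 6.82 and 7.97 in the tumours EMT 4 to EMT 6 and 11.77, 12.56 and 12.10 in EMT 1 to EMT 3, against 10.84 to 12.02 in Squamous tumours. EMT 4, EMT 5 and EMT 6 were thus well below all Squamous tumours in general epithelial markers, and the part of this in the junction results was not tested.

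In EMT 4, EMT 5 and EMT 6 all epithelial junction genes but Tjp1 lay below every Squamous tumour, while EMT 1 and EMT 3 lay within or above the Squamous range. EMT 4 lay below the lowest Squamous tumour in 8 of the 9 genes, all except Cldn5, against 17.6% of all genes in that tumour, and above the highest in 0 (all genes, 19.6%). EMT 5 and EMT 6 each lay below it in 7, all except Tjp1 and Cldn5, against 20.1% and 16.9% of all genes. Above the highest Squamous tumour lay Cldn5 in EMT 5 (all genes, 27.1%) and Cldn5 and Tjp1 in EMT 6 (all genes, 26.8%). EMT 2 lay below the Squamous range in Cldn3 and Cldn8 (all genes, 19.2%) and above it in F11r and Tjp1 (15.5%). EMT 1 lay below it in 0 (8.42%) and above it in 0 (10.1%), and EMT 3 below it in 0 (6.44%) and above it in Cldn1 and Cldn7 (9.26%). In 7 of the 9 genes at least 3 EMT values were under the Squamous minimum, against 11.0% of all genes, and in 2, Cldn3 and Cldn8, at least 4 were, against 3.74%. In 4 of the 9 genes, Cldn1, Cldn7, F11r and Tjp1, EMT tumours lay on both sides of the Squamous range, as for 21.7% of all genes. In whole tumours, fewer epithelial cells and less RNA per epithelial cell cannot be told apart.

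**Figure D1:**
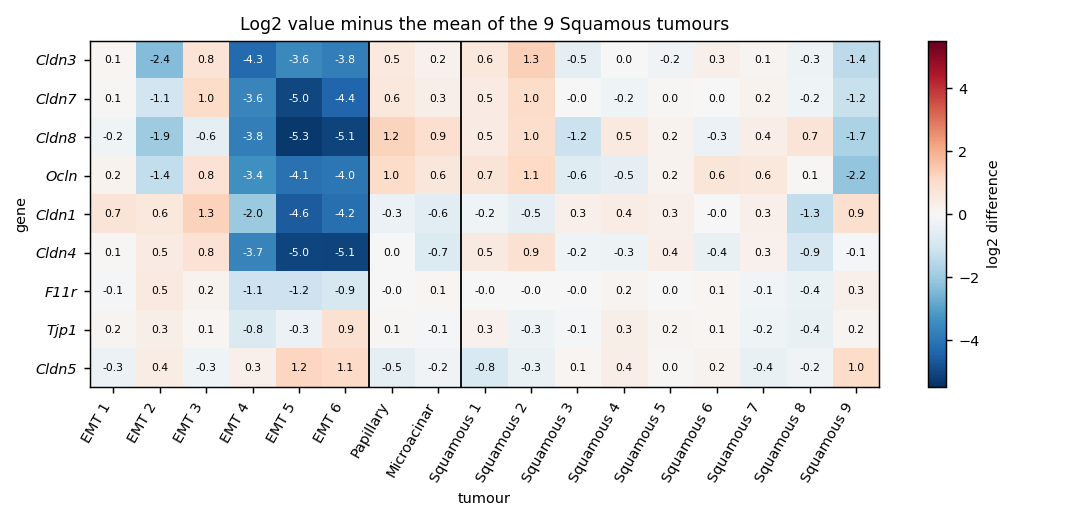
Each cell gives a tumour's log2 value minus the mean of the 9 Squamous tumours for 1 gene (rows), with EMT tumours on the left, then the Papillary and the Microacinar tumour, then Squamous tumours. EMT 4, EMT 5 and EMT 6 are blue in the first 7 rows, and EMT 2 and Squamous 9 are blue in the first 4.

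Cldn3, a claudin of simple epithelia, had values of 11.55, 9.09, 12.23, 7.16, 7.90 and 7.66 in EMT 1 to EMT 6, 11.98 in the Papillary and 11.70 in the Microacinar tumour, against a lowest, median and highest value of 10.04, 11.50 and 12.77 in Squamous tumours. EMT 2 and EMT 4 to EMT 6 lay below all Squamous tumours, and EMT 1 and EMT 3 lay inside their range. Cldn3 averaged 9.26 ± 2.14 in EMT (SD, n = 6) and 11.46 ± 0.75 in Squamous tumours (SD, n = 9), a limma log2 fold change of -1.75 (SE 0.64, adjusted p = 0.260).

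Cldn7, a claudin also found along the lateral membrane, had values of 10.78, 9.67, 11.75, 7.11, 5.71 and 6.36 in EMT 1 to EMT 6, 11.33 in the Papillary and 11.06 in the Microacinar tumour, against 9.49, 10.77 and 11.73 as lowest, median and highest in Squamous tumours. EMT 3 was the highest of all tumours and EMT 5 the lowest, so the EMT values enclosed the whole Squamous range. The means were 8.57 ± 2.51 in EMT (SD, n = 6) and 10.73 ± 0.60 in Squamous tumours (SD, n = 9), with a log2 fold change of -1.53 (SE 0.60, limma adjusted p = 0.288).

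Cldn8, a barrier-forming claudin best known from kidney tubules, had values of 8.46, 6.76, 8.14, 4.90, 3.38 and 3.62 in EMT 1 to EMT 6, 9.91 in the Papillary and 9.61 in the Microacinar tumour, against 6.96, 9.08 and 9.68 as lowest, median and highest in Squamous tumours. Every EMT tumour lay below the Squamous median, and 4 lay below all Squamous tumours. Cldn8 averaged 5.88 ± 2.23 in EMT (SD, n = 6) and 8.70 ± 0.91 in Squamous tumours (SD, n = 9). Its log2 fold change of -2.17 (SE 0.53, limma adjusted p = 0.153) was the lowest of the 9 genes, and 80 of all genes had a lower one.

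Ocln, a membrane protein of the sealing strands, had values of 7.64, 6.07, 8.24, 4.05, 3.32 and 3.46 in EMT 1 to EMT 6, 8.44 in the Papillary and 8.04 in the Microacinar tumour, against 5.28, 7.64 and 8.51 as lowest, median and highest in Squamous tumours. The lowest Squamous value, that of Squamous 9, was also below EMT 2. Ocln averaged 5.46 ± 2.17 in EMT (SD, n = 6) and 7.43 ± 0.99 in Squamous tumours (SD, n = 9), a log2 fold change of -1.33 (SE 0.54, limma adjusted p = 0.302). In EMT 4, EMT 5 and EMT 6 only 6.24%, 4.02% and 5.53% of the probe sets of the same array had a lower value than Ocln. For Cldn8 these shares were 18.6%, 4.87% and 7.21%. The files used here hold no detection calls, so whether such low values lie above background is unknown, and differences that rest on them may be understated.

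Cldn1, a claudin needed for the barrier of the epidermis, had values of 9.67, 9.55, 10.25, 6.93, 4.40 and 4.80 in EMT 1 to EMT 6, 8.63 in the Papillary and 8.39 in the Microacinar tumour, against 7.63, 9.23 and 9.86 as lowest, median and highest in Squamous tumours. EMT 1, EMT 2 and EMT 3 lay above the Squamous median, and the other EMT tumours lay below all Squamous tumours. Cldn1 averaged 7.60 ± 2.59 in EMT (SD, n = 6) and 8.96 ± 0.64 in Squamous tumours (SD, n = 9). The log2 fold change was -0.85 (SE 0.75, limma adjusted p = 0.622), and 0.25 among numbered arrays, so its direction depends on the 3 TM arrays. Without Squamous 9 the TM arrays are all EMT and are taken up by the title format term. That fit therefore repeats the 0.25 of the numbered arrays. Without EMT 3 the log2 fold change was -1.33. With the mean of its 4 probe sets in place of the highest it was -0.37.

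Cldn4, a claudin of simple epithelia that lies beside Cldn3 in the genome, had values of 10.30, 10.69, 11.03, 6.55, 5.19 and 5.12 in EMT 1 to EMT 6, 10.26 in the Papillary and 9.50 in the Microacinar tumour, against 9.30, 10.10 and 11.08 as lowest, median and highest in Squamous tumours. EMT 2, which was low in Cldn3, was above the Squamous median in Cldn4. Cldn4 averaged 8.15 ± 2.82 in EMT (SD, n = 6) and 10.23 ± 0.54 in Squamous tumours (SD, n = 9), a log2 fold change of -1.47 (SE 0.75, limma adjusted p = 0.384).

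F11r had values of 10.51, 11.18, 10.82, 9.49, 9.47 and 9.76 in EMT 1 to EMT 6, 10.59 in the Papillary and 10.75 in the Microacinar tumour, against 10.25, 10.62 and 10.93 as lowest, median and highest in Squamous tumours. The same 3 EMT tumours were lowest, at -1.14, -1.16 and -0.87 relative to the Squamous mean in the tumours EMT 4 to EMT 6. For Cldn1, Cldn3, Cldn4, Cldn7, Cldn8 and Ocln the same deviations were between -5.32 and -2.04. F11r averaged 10.20 ± 0.73 in EMT (SD, n = 6) and 10.63 ± 0.19 in Squamous tumours (SD, n = 9), a log2 fold change of -0.34 (SE 0.24, limma adjusted p = 0.540). With the mean of its 2 probe sets it was -0.18, and without EMT 2 it was -0.55. Among numbered arrays it was -0.09, a value that the fit without Squamous 9 repeats.

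Tjp1, the scaffold, which also serves junctions of cells other than epithelium, had values of 10.69, 10.88, 10.66, 9.73, 10.21 and 11.39 in EMT 1 to EMT 6, 10.62 in the Papillary and 10.43 in the Microacinar tumour, against 10.12, 10.65 and 10.86 as lowest, median and highest in Squamous tumours. EMT 6, among the lowest in all claudins of epithelia, was the highest of all tumours in Tjp1, and EMT 4 was the lowest. The means were 10.60 ± 0.57 in EMT (SD, n = 6) and 10.54 ± 0.26 in Squamous tumours (SD, n = 9). The log2 fold change was 0.000136 (SE 0.21, limma adjusted p = 0.9997), with a 95% interval from -0.46 to 0.46, and its sign differed between settings.

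**Figure D2:**
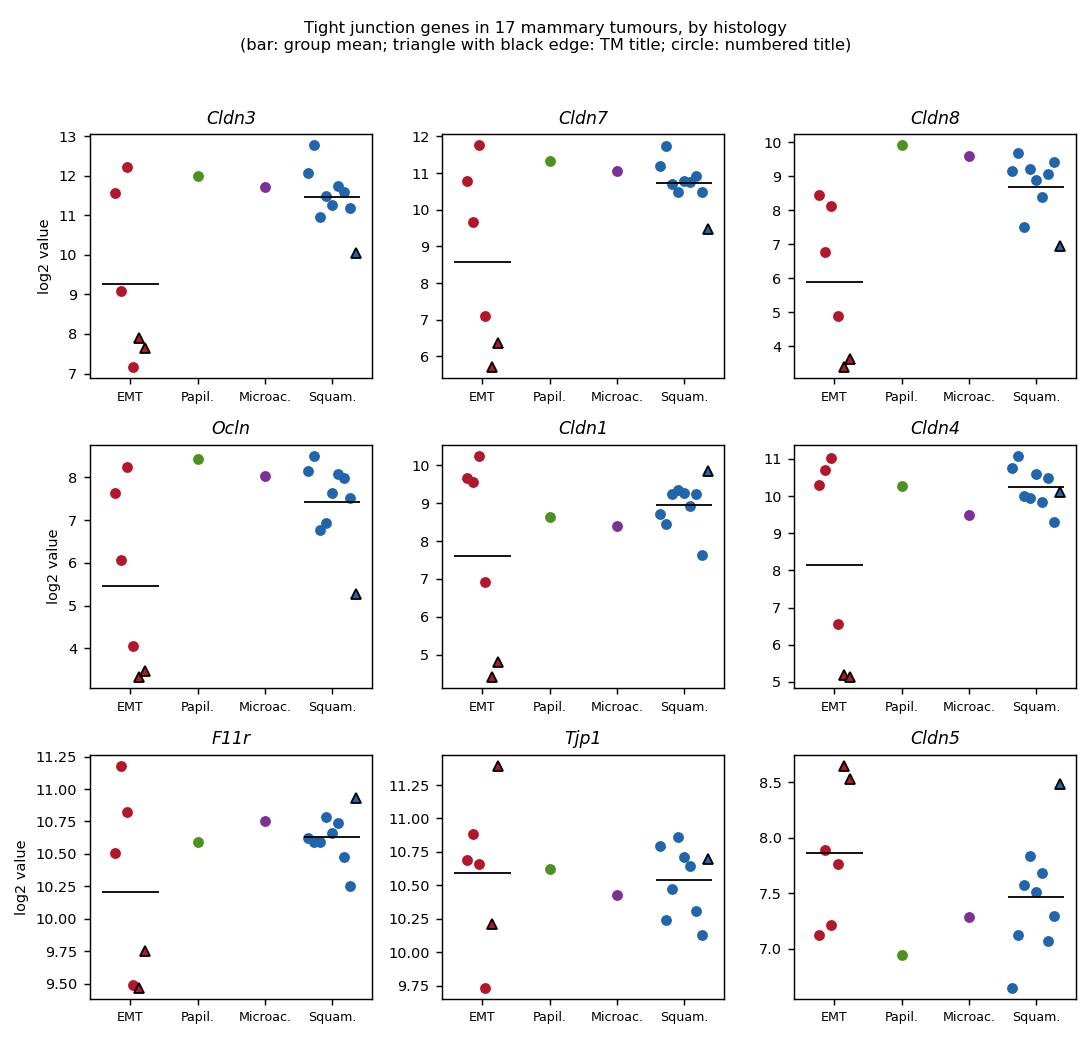
Each point is the log2 value of 1 tumour for the gene named above the panel, grouped by histology on the x axis. Bars are means of the 6 EMT and 9 Squamous tumours, and triangles mark TM arrays. In the first 7 panels EMT 4, EMT 5 and EMT 6 lie below all Squamous tumours.

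The comparison of EMT with Squamous tumours over all genes asks how expression differs between the 2 histologies with replicates. In limma with Benjamini-Hochberg adjustment, 0 of the 9 junction genes passed an adjusted p of 0.05, and 0.0% of all genes did. At an unadjusted p under 0.05, Cldn3, Cldn7, Cldn8 and Ocln were lower in EMT, 4 of the 9 genes, against 6.27% of all genes lower, 8.08% higher and 14.3% in either direction. The median log2 fold change was -1.33 over the 9 genes and 0.01 over all genes. The same 4 genes and Cldn4 had a log2 fold change of -1 or lower, as 3.27% of all genes did, and 7 of the 9, all except Cldn5 and Tjp1, had one below 0, as 48.2% of all genes did. Without the title format term the log2 fold changes were -2.19 for Cldn3, -2.16 for Cldn7, -2.82 for Cldn8 and -1.96 for Ocln. They were then -2.08 for Cldn4, -1.36 for Cldn1, -0.42 for F11r and 0.06 for Tjp1. The spread among EMT tumours was wide. The EMT SD of Cldn1, Cldn3, Cldn4, Cldn7, Cldn8 and Ocln was 2.14 to 2.82, above that of 98.2% to 99.4% of all genes and 2.19 to 5.20 times their Squamous SD. Without EMT 4 the log2 fold changes were -1.05 for Cldn3, -0.92 for Cldn7, -0.73 for Ocln, -0.83 for Cldn4, -0.48 for Cldn1 and -0.12 for F11r. Without Squamous 9, Cldn4 was at -0.60, the value of the numbered arrays, which that fit repeats. Array weights, which count EMT 4 and EMT 2 least, gave -0.84, -0.71, -0.65, -0.78, -0.30 and -0.18 for the same genes.

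Within the title formats the same genes gave different sizes. The lowest value of an array was 2.47 to 2.63 on TM and 3.07 to 3.23 on numbered arrays. Low values could thus fall further on TM arrays, and the part of this in the sizes was not tested. EMT 5 and EMT 6, the TM EMT tumours, had epithelial marker means of 6.82 and 7.97, below all Squamous tumours. Of the numbered EMT tumours only EMT 4 lay below them, at 8.61. With EMT 4 left out, title format and marker level cannot be told apart among EMT tumours. Among numbered arrays (4 EMT and 8 Squamous tumours) the log2 differences were -1.63 for Cldn3, -1.05 for Cldn7, -1.85 for Cldn8, -1.20 for Ocln, -0.60 for Cldn4 and -0.09 for F11r. On TM arrays (2 EMT tumours and 1 Squamous tumour, no call) they were -2.26 for Cldn3, -3.45 for Cldn7, -3.46 for Cldn8, -1.88 for Ocln, -4.95 for Cldn4, -5.26 for Cldn1 and -1.32 for F11r. The difference between formats, tested as an interaction with the lone TM Squamous tumour assumed to vary like the others, passed the adjusted threshold for 0 of the 9 genes and for 0.46% of all genes. Cldn1 came nearest, at -5.51 (SE 1.16, limma adjusted p = 0.0745). At an unadjusted p under 0.05 it was negative for Cldn1, Cldn4 and F11r, 3 of the 9 genes, against 4.51% of all genes (9.22% in either direction). Without EMT 4 the adjusted threshold was passed by 350 of the 12393 genes, against 57 with all tumours, and by 4 of the 9 genes: Cldn1 (-6.23, adjusted p = 0.000565), Cldn4 (-5.37, adjusted p = 0.00114), F11r (-1.56, adjusted p = 0.0153) and Cldn7 (-3.30, adjusted p = 0.0451). With array weights 271 genes passed, Cldn1 and Cldn4 among them.

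**Figure D3:**
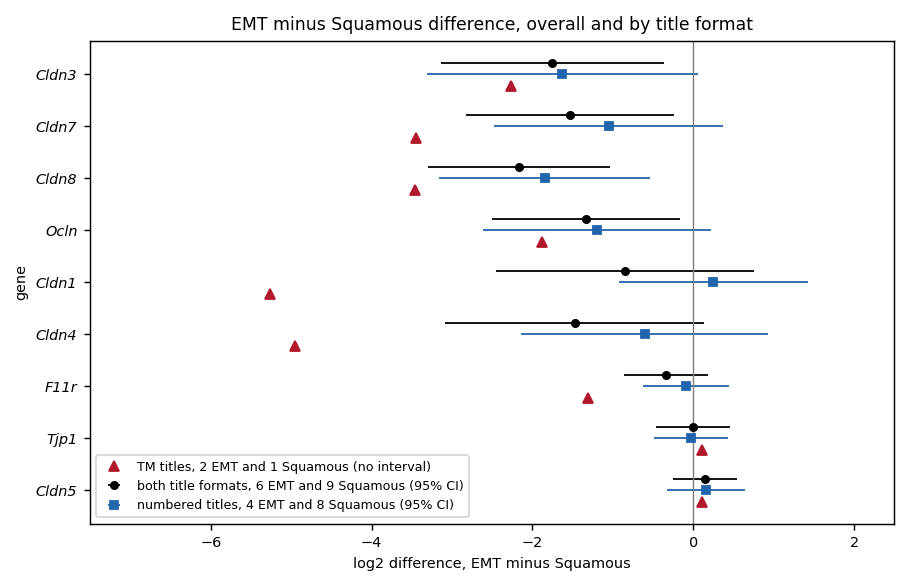
Log2 differences, EMT minus Squamous, for each gene from both title formats together (black circles), from numbered arrays (blue squares), both with 95% confidence intervals from limma, and from TM arrays (red triangles, no interval). Cldn1 is at -5.26 on TM arrays and at 0.25 on numbered arrays, while the 3 estimates of Tjp1 and of Cldn5 lie between -0.03 and 0.16.

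EMT 2 and Squamous 9 separated the epithelial members from one another. In EMT 2, Cldn3, Cldn8, Ocln and Cldn7 were at -2.37, -1.94, -1.35 and -1.05 relative to the Squamous mean, while Cldn1, F11r, Cldn4 and Tjp1 were at 0.59, 0.55, 0.46 and 0.34. Squamous 9 showed the same split, with Ocln, Cldn8, Cldn3 and Cldn7 at -2.15, -1.74, -1.42 and -1.24, the lowest of the 9 Squamous tumours in each, and Cldn1 at 0.90 and F11r at 0.30, the highest of the 9 in each. Cldn4 in Squamous 9 was at -0.13 and Tjp1 at 0.16. Squamous 9 is a TM array and EMT 2 a numbered one. Squamous 8 was the lowest Squamous tumour in Cldn1 (-1.33), Cldn4 (-0.93), F11r (-0.38) and Tjp1 (-0.41), with Cldn3 at -0.28, Cldn7 at -0.24, Ocln at 0.083 and Cldn8 at 0.72.

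Across the 9 Squamous tumours, Pearson r, given as a description, was 0.71 to 0.95 for the 6 pairs among Cldn3, Cldn7, Cldn8 and Ocln, with Cldn3 and Cldn7 highest. Cldn1 had r of 0.82 with F11r and 0.65 with Tjp1, but -0.48, -0.47, -0.66 and -0.58 with Cldn3, Cldn7, Cldn8 and Ocln. Squamous 9 carries part of this: over the other 8 tumours the 6 pairs had r of 0.37 to 0.89, and Cldn1 had -0.18, -0.13, -0.48 and -0.31 with those 4 genes, while its r with F11r was 0.75. Cldn3 and Cldn4, neighbours on chromosome 5, had r of 0.56 over 9 tumours and 0.70 without Squamous 9. All points share their arrays, so differences in RNA quality or makeup of the tumour enter every pair.

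The promoters are shown because Cldn1, Cldn3, Cldn4, Cldn7, Cldn8, Ocln and F11r were low in the same 3 tumours, and because the E-box CAGGTG, which reads as CACCTG on the other strand, is a binding motif of Zeb and Snai repressors. RefSeq windows on GRCm38.p6, from 250 bases before to 50 after a start site, were found for 8 of the 9 genes, 10 windows in all, and Cldn8 had no entry. The motif was in 6 of the 10 windows and in 5 of the 8 genes, Cldn3, Cldn4, Cldn7, Ocln and F11r, and in 20.2% of the 32851 windows of all genes. It was found 2 times in Cldn4, at positions -14 and 12 from the start site, and in the second Cldn7 window, at -97 and -57. In the others it was at 32 for Cldn3, 8 for the first Ocln window and -122 for F11r. The 2 Ocln windows overlap, share that motif, and the second holds another at -68 from its own start. The windows of Cldn1, Cldn5 and Tjp1 and the first of Cldn7 do not contain these letters, although Cldn1 was low in the same tumours. The Myc E-box CACGTG was in 0 of the 10 windows and in 7.15% of all windows. A match is a description of letters, not a measured site. Capitals mark CAGGTG or CACCTG, each window reads 5′ to 3′ on the gene's strand, and Cldn1 is shown as a window without the motif:
Cldn3, chr5:134985964-134986263, plus strand: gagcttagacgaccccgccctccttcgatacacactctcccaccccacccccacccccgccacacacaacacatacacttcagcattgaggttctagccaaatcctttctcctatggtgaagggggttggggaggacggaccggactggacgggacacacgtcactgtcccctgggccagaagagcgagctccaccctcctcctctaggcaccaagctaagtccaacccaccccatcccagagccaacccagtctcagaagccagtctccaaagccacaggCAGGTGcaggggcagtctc
Cldn4, chr5:134946885-134947184, minus strand: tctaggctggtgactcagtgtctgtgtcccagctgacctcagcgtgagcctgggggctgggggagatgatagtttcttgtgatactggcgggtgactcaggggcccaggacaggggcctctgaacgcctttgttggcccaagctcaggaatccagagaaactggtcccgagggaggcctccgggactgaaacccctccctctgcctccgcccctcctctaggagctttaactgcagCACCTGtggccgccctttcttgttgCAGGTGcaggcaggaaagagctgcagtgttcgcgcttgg
Cldn7, second window, chr11:69965171-69965470, plus strand: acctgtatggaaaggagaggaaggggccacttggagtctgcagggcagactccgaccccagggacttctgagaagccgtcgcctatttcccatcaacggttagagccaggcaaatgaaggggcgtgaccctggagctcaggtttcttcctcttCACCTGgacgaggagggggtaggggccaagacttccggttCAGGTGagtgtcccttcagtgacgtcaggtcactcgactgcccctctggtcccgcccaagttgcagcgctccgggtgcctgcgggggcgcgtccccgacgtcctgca
Ocln, first window, chr13:100552669-100552968, minus strand: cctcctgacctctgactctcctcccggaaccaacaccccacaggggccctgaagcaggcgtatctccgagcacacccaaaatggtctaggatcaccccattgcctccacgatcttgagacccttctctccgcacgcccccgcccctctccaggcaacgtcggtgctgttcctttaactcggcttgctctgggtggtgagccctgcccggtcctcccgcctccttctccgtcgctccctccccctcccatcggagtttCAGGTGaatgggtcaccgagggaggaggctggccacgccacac
F11r, chr1:171437311-171437610, plus strand: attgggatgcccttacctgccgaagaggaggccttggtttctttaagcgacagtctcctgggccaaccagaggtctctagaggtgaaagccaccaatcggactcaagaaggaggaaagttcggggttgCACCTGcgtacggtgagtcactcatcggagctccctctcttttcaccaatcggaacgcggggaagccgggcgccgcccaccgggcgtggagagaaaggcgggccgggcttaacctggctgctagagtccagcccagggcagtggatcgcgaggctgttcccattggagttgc
Cldn1, chr16:26371790-26372089, minus strand: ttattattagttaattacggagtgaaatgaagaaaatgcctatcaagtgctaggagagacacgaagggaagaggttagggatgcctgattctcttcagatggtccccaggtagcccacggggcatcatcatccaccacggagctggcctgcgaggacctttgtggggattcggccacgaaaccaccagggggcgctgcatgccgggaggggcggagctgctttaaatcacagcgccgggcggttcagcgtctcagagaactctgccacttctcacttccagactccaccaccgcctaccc

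Cldn5, the endothelial claudin, lay within the Squamous range in EMT 4 and above it in EMT 5 and EMT 6. It had values of 7.13, 7.89, 7.21, 7.76, 8.65 and 8.53 in EMT 1 to EMT 6, 6.95 in the Papillary and 7.28 in the Microacinar tumour, against 6.65, 7.51 and 8.48 as lowest, median and highest in Squamous tumours. The 3 TM arrays, 2 of them EMT and 1 Squamous, were the 3 highest, at 8.48 or above, while the highest numbered array was at 7.89. Cldn5 averaged 7.86 ± 0.64 in EMT (SD, n = 6) and 7.47 ± 0.52 in Squamous tumours (SD, n = 9). With the title format in the model the log2 fold change was 0.15 (SE 0.19, limma adjusted p = 0.748, 95% interval -0.25 to 0.55), and without that term it was 0.39. It was 0.16 among numbered and 0.11 among TM arrays. Leaving out 1 tumour moved it to 0.045 without EMT 2, 0.068 without Squamous 1, 0.079 without EMT 4 and 0.24 without EMT 1.

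The 19 measured endothelial genes averaged 7.01 to 8.20 in EMT tumours, 7.19 in the Papillary and 7.53 in the Microacinar tumour, against 6.56 to 8.25 in Squamous tumours. Squamous 1, with the lowest endothelial mean, also had the lowest Cldn5. Over the 14 numbered arrays Pearson r of Cldn5 with the endothelial mean was 0.82. It was 0.85 with Pecam1 and 0.87 with Cdh5, adhesion proteins of endothelial cells, and 0.70 with Kdr, a VEGF receptor. Over these arrays the r with the 19 genes was between 0.09 (Vwf) and 0.90 (Robo4), with a median of 0.80. Over all 17 tumours r was 0.81 with the endothelial mean, but -0.62 with Erg, an endothelial transcription factor. None of the 19 passed in limma (0 at adjusted p under 0.05, 1 at an unadjusted p under 0.05, against 0.0% and 14.3% of all genes), and their median log2 fold change was 0.03. Across the 9 Squamous tumours Cldn5 had r of -0.75 with Cldn3, -0.83 with Cldn7, -0.72 with Cldn8, -0.84 with Ocln and -0.43 with Cldn4, and of -0.49, -0.62, -0.42, -0.64 and -0.53 without Squamous 9. With Cldn1, F11r and Tjp1 the r was positive, at 0.59, 0.65 and 0.32, and at 0.36, 0.41 and 0.24 without Squamous 9.

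**Figure D4:**
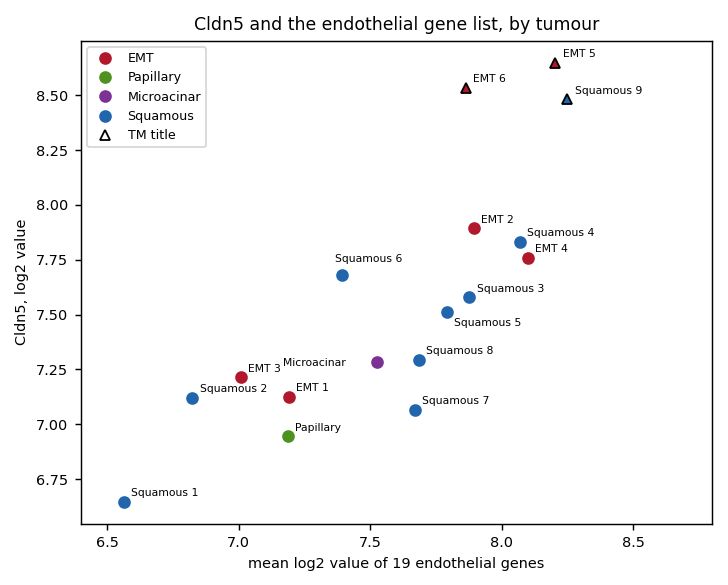
Cldn5 (y axis, log2 value) against the mean log2 value of 19 endothelial genes (x axis) in each of the 17 tumours, coloured by histology, with TM arrays as triangles. Squamous 1 is lowest on both axes, and the 3 TM arrays are highest in Cldn5.

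The Papillary and Microacinar tumours, 1 of each, had the junction genes near Squamous levels. For Cldn8 the level was 9.91 in the Papillary and 9.61 in the Microacinar tumour and 5.88 ± 2.23 in EMT tumours (SD, n = 6), against 8.70 ± 0.91 in Squamous tumours (SD, n = 9), and of the single tumours the Papillary one alone lay above the highest Squamous tumour. Cldn3, Cldn7 and Ocln had the same order of levels, with Papillary values 0.53, 0.60 and 1.01 and Microacinar values 0.25, 0.33 and 0.61 above the Squamous mean. These 6 differences are close to or within 1 Squamous SD. In Cldn1 both single tumours were below the Squamous mean, by 0.33 and 0.57, inside the Squamous range. In total the Papillary tumour was above the highest Squamous tumour in 1 of the 9 genes, against 8.26% of all genes, and below the lowest in 0. The Microacinar tumour was outside the Squamous range in 0 of the 9 (10.0% of all genes were below it and 11.1% above).

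Of 41 other tight junction genes listed from general knowledge, 36 were measured. In limma 0 of the 36 passed at adjusted p under 0.05; at an unadjusted p under 0.05, 5 were lower and 1 was higher in EMT, against 6.27% and 8.08% of all genes. Their median log2 fold change was -0.03, close to 0.01 over all genes, with 21 below 0 (all genes, 48.2%). Many of these claudins are best known from other tissues, and only 11 of the 36 genes were above the median level over genes. The mean of the 36 was 6.41, 6.18 and 6.23 in EMT 4 to EMT 6, against 6.75 to 7.29 in Squamous tumours. In EMT 1 to EMT 3 it was 7.24, 7.01 and 7.35. In 15 of the 36 at least 3 EMT tumours were below the lowest Squamous tumour (all genes, 11.0%), and in 6 at least 3 were above the highest (all genes, 15.1%).

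The 4 lowest were 3 membrane proteins and 1 scaffold. Igsf5, an immunoglobulin-like junction protein, had a log2 fold change of -1.55 (SE 0.55, limma adjusted p = 0.250). Marveld2, the tricellulin of contacts where several cells meet and a relative of occludin, had values of 8.10, 6.26, 8.73, 4.95, 3.79 and 4.0 in EMT 1 to EMT 6, against 6.63 to 8.72 in Squamous tumours, and a log2 fold change of -1.45 (SE 0.51, limma adjusted p = 0.249). Tjp3, the ZO-3 scaffold, was at -1.44 (SE 0.51, limma adjusted p = 0.252), whereas its relative Tjp1 was near 0. Cxadr, the coxsackievirus and adenovirus receptor, an adhesion protein of junctions, was at -1.34 (SE 0.54, limma adjusted p = 0.295). Marveld2, Igsf5 and Cxadr were also lower in EMT 2 than in any Squamous tumour, as Cldn3 and Cldn8 were. Igsf5 was at 4.35 (lowest Squamous 6.15) and Cxadr at 7.58 (lowest Squamous 7.90). Tjp3 in EMT 2 was at 7.36, inside the Squamous range. Squamous 9 was the lowest Squamous tumour in Marveld2, Igsf5 and Tjp3, but in Cxadr it was at 9.12, above the Squamous mean of 8.94.

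The 4 highest were Cldn10, Arhgef2, Jam2 and Mpdz. Arhgef2, a protein held at junctions, was at 0.66 (SE 0.25, limma adjusted p = 0.270), with EMT 4, EMT 5 and EMT 6 at 8.90, 9.57 and 9.17 above the highest Squamous tumour. Mpdz, a scaffold with many PDZ domains, was at 0.43 (SE 0.31, limma adjusted p = 0.536). The same tumours had 8.62, 8.94 and 9.74 and EMT 1 had 7.97, against at most 7.82 in Squamous tumours. EMT 2, at 6.81, was below the lowest Squamous tumour at 6.85. The Papillary (8.14) and Microacinar (7.95) tumours were also above the highest Squamous tumour. Jam2, a relative of F11r found in vessels, was at 0.63 (SE 0.40, limma adjusted p = 0.494), with 9.21 in EMT 2. Cldn10 was at 0.74 (SE 0.59, limma adjusted p = 0.576), led by EMT 3 at 9.31 and EMT 1 at 7.76, and it had the same value of 4.57 in EMT 5 and Squamous 9.

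**Figure D5:**
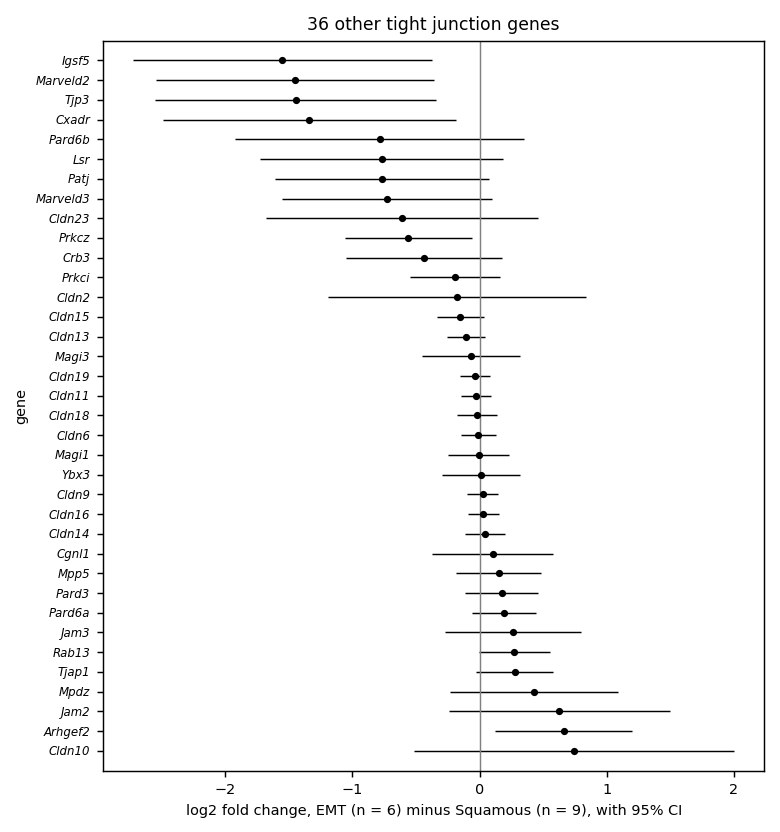
Log2 fold change, EMT (n = 6) minus Squamous (n = 9), with its 95% confidence interval from limma (x axis) for each of 36 other tight junction genes (y axis, sorted). Igsf5, Marveld2, Tjp3 and Cxadr lie lowest, between -1.55 and -1.34, and Cldn10 highest at 0.74.

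Among the genes with a mean above the median over genes, the patterns most like each member over the 17 tumours were found by Pearson r, given as a description. They were Spint2, a membrane-bound protease inhibitor (0.98), and Nfe2l3 (0.98) for Cldn7, Epb41l4b (0.99) and Cldn7 (0.97) for Ocln, Bspry and Wwc1 (both 0.97) for Cldn3, Cdcp1 (0.98) and Myo5b, a myosin motor (0.97), for Cldn4. They were Nfe2l3 and Unc13b (both 0.95) for Cldn8, Zfp185 (0.97) and Fzd6, a Wnt receptor (0.96), for Cldn1, and Rab25, a small GTPase of epithelia (0.95), and Ripk4, a kinase of epidermal differentiation (0.94), for F11r. Within the 9 Squamous tumours the same 14 pairs had r from 0.56 for Cldn4 and Cdcp1 to 0.95 for Ocln and Epb41l4b. For Tjp1 the nearest were Kdm3a and Sf3b1 (both 0.87), and for Cldn5 Dnajb4 (0.93) and Rusc2 (0.92), none of them in the epithelial or endothelial lists.

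Genes with several probe sets allowed a check of the chosen one. The 4 probe sets of Cldn3 moved together, with r of 0.997 to 0.999 against the chosen one over the 17 tumours and EMT minus Squamous differences of means from -2.22 to -1.95. For Cldn1 the next brightest probe set had r of 0.96 and a difference of -0.78, and the 2 others, with means of 4.33 and 3.61, had r of 0.52 and 0.62. The dimmest of these held the same value, 2.96, on all 3 TM arrays. The second probe set of F11r, with a mean of 5.86, had r of 0.38 and a difference of -0.02. The other 6 genes had 1 probe set each.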

How the data were processed

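RNA of 17 tumours was measured, 1 array each, from biotin-labelled cRNA, per the labels' protocols. What the authors deposited is 1 log2 number per probe set and array. The log2 scale was read from the numbers, and the authors' normalization is not given in the sources used here. They were used as deposited. Of 22690 probe sets, 64 controls were left out, 20380 were paired with 1 gene symbol by the supplied probe table (20351 matched RefSeq by gene identifier), 691 with several and 1555 with none. Where a gene had several, the one highest on average was kept, which left 12393 genes.

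The contrast of EMT minus Squamous came from limma 3.58.1 (R 4.3.3), in a model of histology plus title format, with Benjamini-Hochberg adjustment over all genes. The model was also run on simulated data with equal spread in both histologies and no title format effect. That run does not cover the wider EMT spread seen here. An interaction with title format was fitted too. Squamous 7 and Squamous 8 share 1407 in their titles, and the Microacinar tumour and Squamous 5 share 1308. The genes and lists were chosen with earlier results of these data known. Named genes were the 9 members, the 4 highest and 4 lowest other tight junction genes, Pecam1, Cdh5 and Kdr, and for each member the 2 genes with the highest r. Others, such as pairs and single tumours set apart in the text, were picked after their values were seen. Marker lists came from general knowledge. Their means in EMT and in Squamous tumours were 10.18 to 12.56 and 8.73 to 11.94 for fibroblast, 8.44 to 10.70 and 8.02 to 10.25 for leukocyte, 5.83 to 11.30 and 5.80 to 9.47 for skeletal muscle and 5.61 to 6.21 and 5.72 to 8.50 for adipocyte genes, and their part in the results was not tested. Pandas 2.3.3, numpy 2.4.6 and matplotlib 3.10.9 were used. Alternatives changed 1 choice each: dropping the title format term, numbered arrays only, quantile normalization, array medians subtracted, averaging a gene's probe sets, testing only genes above the median level, limma's trended robust variance, array weights (also by histology), fitting the 17 tumours as 4 groups, averaging both 1407 Squamous tumours, and leaving out each tumour. On TM arrays alone no test was possible.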

Additional observations from a re-analysis of the deposited data

Results flagged for a closer look

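Of 44 sets of 6 EMT or 9 Squamous values examined for a single tumour far from the others, 1 was set apart: Cldn10 in Squamous 7 was at 8.60, above the next Squamous tumour at 6.42, a gap of 0.54 of the range of that group. Chance alone sets apart about 1 such set in 20. None of the 9 junction genes was set apart in this way.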

How the results depend on the processing

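No paired analysis of EMT and Squamous tumours was possible because no EMT tumour shares a title number with a Squamous tumour. Across all alternatives and all left-out tumours, 0 of the 9 junction genes and 0 of the 36 other tight junction genes passed an adjusted p of 0.05 for EMT minus Squamous. Cldn3, Cldn4, Cldn7, Cldn8, Ocln and F11r stayed below 0 in each of these fits in which they were tested. Some of these fits cannot change a log2 fold change: trended robust variance, the fit of 4 groups and testing only genes above the median level. Averaging probe sets cannot change it for genes with 1 probe set. Leaving out Squamous 9 repeats the log2 fold changes of the numbered arrays. Leaving out 1 tumour, the count over all genes was 0 to 14, with 14 without EMT 1. Cldn1 turned to 0.25 among numbered arrays and hence without Squamous 9, and was -1.33 to -0.48 with any other tumour left out. Cldn5 turned to -0.017 with array weights and was 0.045 to 0.24 when tumours were left out. Tjp1 was -0.027 among numbered arrays, -0.039 after quantile normalization and -0.033 with the 2 Squamous tumours of 1 title number averaged, and -0.10 to 0.20 when tumours were left out. In the interaction with title format, 2 of the 9 genes passed with array weights and 0 to 4 when tumours were left out, and over all genes 57 passed, 28 after quantile normalization, 10 among genes above the median level, 271 with array weights and 39 to 350 when tumours were left out (350 without EMT 4 and 161 without EMT 6). The interaction of Cldn5 turned to 0.18 with array weights. With tumours left out it was -0.17 to 0.084 for Cldn5, -1.58 to 0.11 for Cldn3 and -0.46 to 0.73 for Tjp1. At an unadjusted p under 0.05, 1778 genes differed between EMT and Squamous tumours, 1162 among numbered arrays, 1064 of 6196 genes above the median level and 1056 with array weights. The cause of these changes was not tested.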
